A study of Saccharomyces cerevisiae with 24 samples.

Results

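The untreated Lsm1 degron strain of budding yeast, lsm1-ideg, was compared with the untreated wild-type strain, wt. The members were chosen by the labels alone: the 4 libraries of lsm1-ideg and the 4 libraries of wt taken before any addition (T0), 8 of the 24 libraries of the series, with all measured features. The other 16 libraries were the dcp2-ideg strain at T0 and all 3 strains 60 min after indole-3-acetic acid (the auxin IAA, 100 µM) and beta-oestradiol (1 µM) were added (T60). Cultures were in the rich medium YPD, and poly(A)-selected RNA was sequenced with the strand kept. The labels give the genotypes of these groups as lsm1-ideg and WT and name no other allele. They do not say how LSM1 was tagged, which promoter drove the tagged gene, whether wt carried the degron machinery, or how many clones were used, and the wt library names carry the abbreviation BY. The T0 groups share the absence of both agents, so they address what the tagged strain expressed before Lsm1 was to be depleted. The labels do not say that replicates came from separate cultures, and p-values therefore measure only the spread between these libraries, which may be technical.

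Lsm1 is the subunit that distinguishes the cytoplasmic Lsm1-7 ring from the nuclear Lsm2-8 ring. With its partner Pat1, the Lsm1-7 ring binds the 3' end of mRNAs whose poly(A) tail has been shortened and stimulates removal of the 5' cap by Dcp1-Dcp2, after which Xrn1 digests the transcript. An inducible degron is a tag that directs a protein to destruction once a small molecule is added, and a tag or its construction can alter a strain before that molecule is present.

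The 8 libraries held between 46.86 and 64.88 M counts (M standing for mega), and 11776 features were tested. Most counts, 80.82% to 85.25%, fell on protein-coding genes. The wt T0 replicate 4 library stood apart from the rest, with the lowest share of ribosomal protein gene counts (13.34%, against 16.02% to 16.25% in lsm1-ideg) and a first principal component score of -44.12, where the other 7 lay between -16.94 and 28.5. Both strains expressed the a-cell genes (STE2 at 650 CPM, counts per 1 M scaled counts of a library, in wt and 641 in lsm1-ideg) and had the alpha-factor genes MF(ALPHA)1 and MF(ALPHA)2 under 1 CPM on average. The other alpha-cell genes listed were not absent. STE3 averaged 3.58 CPM in wt and 3.08 in lsm1-ideg. SAG1 averaged 31.2 and 33.2 CPM, above the a-cell gene ASG7 (7.98 and 9.95 CPM). LEU2 and MET17, loci that laboratory strains often lack, had at most 4 and 0 counts in any of the 8 libraries.

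Before treatment few features passed the test between the 2 strains, and most protein-coding genes lay close to their wt level. Of the 11776 features, 41 (0.348%) passed an adjusted p of 0.05 and are here termed called: 23 (0.195%) were higher in lsm1-ideg and 18 (0.153%) lower. Overlapping calls on 1 strand joined into 36 positions. At least 2-fold differences were reached by 10 of the higher and 16 of the lower features. All 41 had wt and lsm1-ideg values that did not overlap, as did 699 features (5.94%) over the whole table. Among 5752 protein-coding genes, 17 (0.296%) were higher and 7 (0.122%) lower, their median log2 difference was 0.02, and 95.98% lay within 0.5 of 0. The median standard error (SE) of a protein-coding gene was 0.14. Before adjustment, 834 features (7.08%) had a p under 0.05, 439 (3.73%) of them higher and 395 (3.35%) lower. Large fitted differences belonged mainly to scarce transcripts: 383 features, called ones included, had a log2 difference of at least 1 in size, and 319 of them averaged under 1 CPM in both groups.

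Of the 41 calls, 25 were made in each of the 8 fits that leave out 1 of the libraries compared. The count of higher features was 13 without wt T0 replicate 2, 14 without lsm1-ideg T0 replicate 3 and 15 without lsm1-ideg T0 replicate 1. Without wt T0 replicate 4, 37 features were called, and 33 of the 41 were among them. A fit of only the 8 libraries compared called 50 features and 33 of the 41. It lost IRT1 with its other entries SUT643 and XUT_10R-233, CUT207, FAA1, HFM1, XUT_8F-246 and XUT_7F-393 (adjusted p from 0.0520 to 0.137). A fit of the 12 T0 libraries lost 17 of the 41 (adjusted p from 0.0569 to 0.196), namely those 8 and GAL1, PHO11, SUT592, XUT_8R-217, MDH2, OPT2, RPL7B, DDR2 and SUT351.

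**Figure D1:**
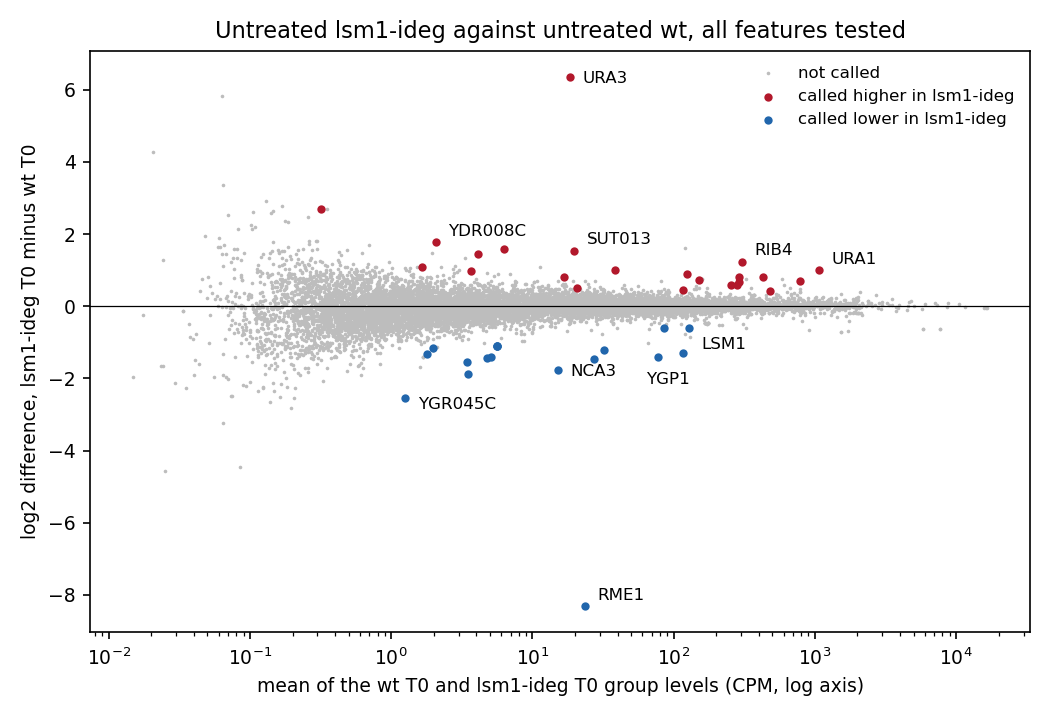
Log2 difference (lsm1-ideg T0 minus wt T0) of every feature tested against its mean level in CPM on a log axis, with called features in colour. URA3 at 6.35 and RME1 at -8.31 stand outside the cloud, and the other 39 called features lie between -2.55 and 2.71.

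The LSM1 mRNA itself was lower in the degron strain before treatment. It stood at 153, 162, 152 and 147 CPM in the wt libraries and at 101, 103, 103 and 99.0 CPM in the lsm1-ideg libraries. The groups did not overlap, and lsm1-ideg varied little between its libraries. The log2 difference was -0.60 ± 0.08 (SE, n = 4 a group; adjusted p = 0.000113), a level of 0.662 of that in wt. It lay between -0.63 and -0.57 when any 1 of the 8 libraries was left out. In the dcp2-ideg T0 libraries LSM1 did not pass the test against wt (0.08, adjusted p = 0.667), and lsm1-ideg was lower than dcp2-ideg by -0.68 (adjusted p = 1.13e-05). LSM1 lies on chromosome X (186854-187813, minus strand, sacCer3), and the counts are those of the whole feature, so they do not show whether the tag changed the transcript's ends.

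The cryptic unstable transcript CUT207 (chromosome X, 186890-187209), inside LSM1 on the opposite strand, was lower as well. Its wt libraries held 2.83, 2.86, 3.42 and 1.85 CPM and its lsm1-ideg libraries 1.14, 1.02, 1.41 and 1.30 CPM, without overlap. The difference of -1.17 ± 0.26 (adjusted p = 0.0416) was no longer called in 7 of the 8 fits that leave out 1 library, all but the one without wt T0 replicate 4, with an adjusted p of up to 0.212. A small share of reads from an abundant gene can be counted on the opposite strand, and how much of CUT207 came from LSM1 was not tested.

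Genes around LSM1 were near their wt level, apart from NCA3. Within 10 kb on either side, 34 features were tested, and LSM1, CUT207 and NCA3 were called. The adjacent genes GCD14 and MTC1, each 0.12 kb from LSM1, differed by 0.05 and 0.10. The 12 uncalled protein-coding neighbours ranged from -0.33 to 0.15. NCA3, 5.7 kb away, encodes a protein of the SUN family linked to mitochondrial ATP synthase expression. It fell from 24.1, 27.2, 22.6 and 20.2 CPM in wt to 6.17, 9.62, 5.58 and 6.31 CPM in lsm1-ideg, without overlap (-1.77 ± 0.21, adjusted p = 2.1e-05). NCA3 was also lower in the dcp2-ideg T0 libraries, in which LSM1 did not pass the test (-1.13, adjusted p = 0.00336). The medians of the 16 nuclear chromosomes lay between 0.0013 and 0.033 over their protein-coding genes.

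**Figure D2:**
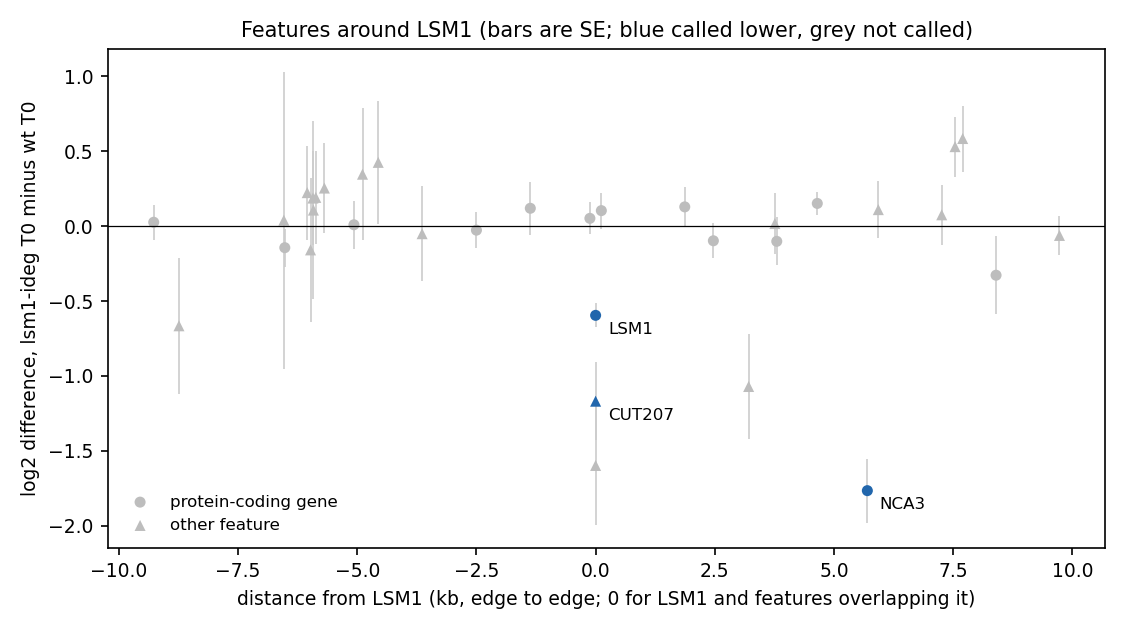
Log2 difference (lsm1-ideg T0 minus wt T0, bars SE) of the 34 features within 10 kb of LSM1 against their distance from it in kb. LSM1 (-0.60), CUT207 (-1.17) and NCA3 (-1.77) were called lower, and the nearest genes on both sides lie near 0.

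The mRNAs of the other ring subunits, and of the decay machinery, did not pass the test. Over all features only 0.348% passed, so the absence of a call in lists this short says little about them. LSM2 to LSM8 had log2 differences from 0.03 for LSM4 to 0.25 for LSM6, and PAT1 had -0.07. Of 20 decapping and 5'-3' decay factors none was called, with a median of 0.02 and a range from -0.28 to 0.21. Among them DCP2, the catalytic subunit of the decapping enzyme, averaged 144 CPM in wt and 145 CPM in lsm1-ideg (0.01 ± 0.14). XRN1, the 5'-3' exonuclease, had -0.06 ± 0.19, DHH1, a helicase that represses translation and promotes decapping, 0.15 ± 0.15, and DCP1, the cofactor of DCP2, 0.12 ± 0.15. No member was called among 12 Ccr4-Not and Pan2-Pan3 deadenylase subunits, 22 exosome and Ski factors or 5 nonsense-mediated decay factors, and their medians were 0.03, 0.05 and 0.05.

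Of the mRNAs listed as substrates of these pathways none was called, beside 0.348% of all features. The 10 mRNAs known to be regulated by decapping factors had a median of -0.04, and the highest of them was RPS28B, whose own protein recruits the decapping activator Edc3 to its mRNA, at 0.48 ± 0.22 (adjusted p = 0.675). MFA2, the short-lived a-factor mRNA used in decay studies, had -0.14 ± 0.26. The 15 mRNAs known to be sensitive to nonsense-mediated decay had a median of 0.08, with EST3 the highest at 0.51 ± 0.15 (adjusted p = 0.211). The 1657 Xrn1-sensitive unstable transcripts (XUTs) had a median of -0.02 with 4 called in each direction, beside 0.195% higher and 0.153% lower of all features. The 907 cryptic unstable transcripts (CUTs) had a lower median, -0.20, with 269 positive and 1 called lower. Before adjustment 55 CUTs were lower with a p under 0.05 and 11 higher, beside 3.35% and 3.73% of all features. The separate CUT_GIM set had a median of -0.07 and the stable unannotated transcripts 0.01.

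**Figure D3:**
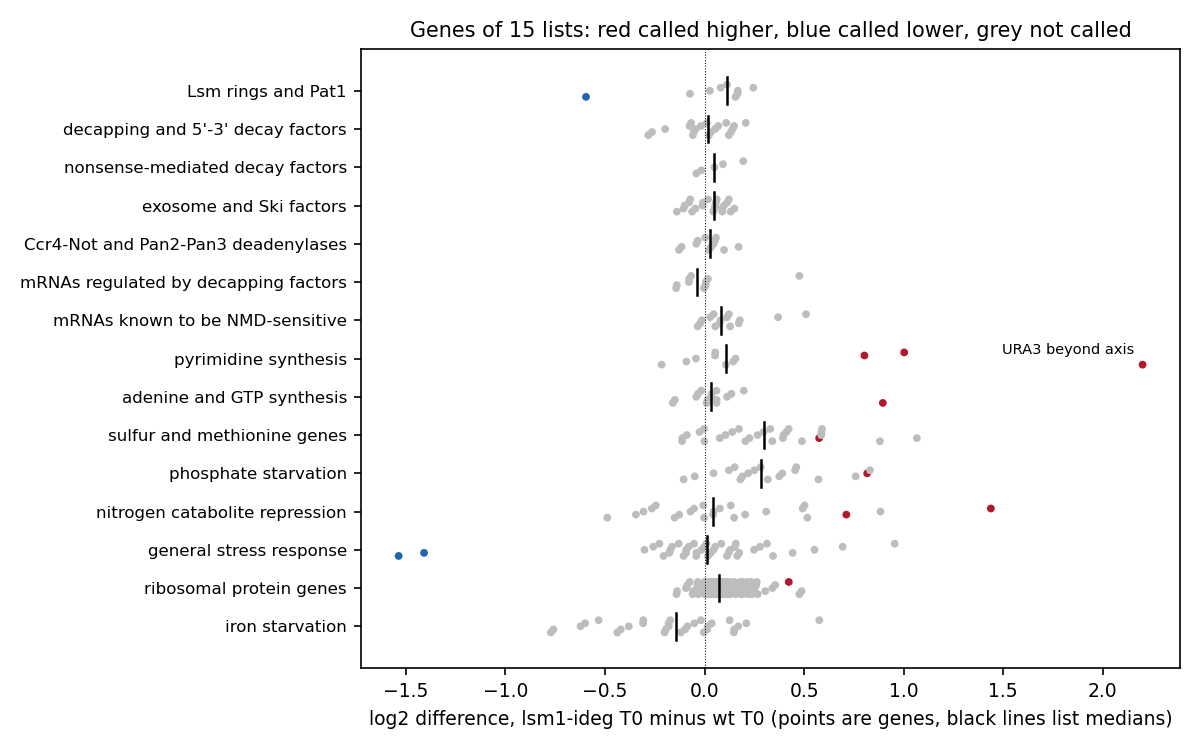
Log2 differences (lsm1-ideg T0 minus wt T0) of the genes of 15 lists, 1 point a gene, with the list median as a black line. The medians of the decay lists lie near 0, while those of the sulfur (0.30) and phosphate (0.28) lists lie to the right and that of the iron list (-0.15) to the left. URA3, at 6.35, is drawn at the right edge.

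URA3 (chromosome V, 116121-117049, plus strand) was the largest rise. It encodes orotidine-5'-phosphate decarboxylase, the last step of UMP synthesis, and is widely used as a selectable marker in strain construction. In wt its 4 libraries held 0.53, 0.41, 0.24 and 0.59 CPM, which are 24, 25, 12 and 33 counts. In lsm1-ideg they held 34.1, 34.8, 42.85 and 33.6 CPM. Every lsm1-ideg library was thus far above every wt library, by 6.35 ± 0.30 on the log2 scale (adjusted p = 2.37e-13). URA3 was also high in dcp2-ideg T0 against wt (5.85, adjusted p = 1.11e-12). TIM9, the gene next to it on chromosome V (117145-117577, same strand, a chaperone subunit of the mitochondrial intermembrane space), rose from 29.7, 30.7, 25.1 and 16.9 CPM to 52.0, 48.4, 56.9 and 48.6 CPM (1.01 ± 0.16, adjusted p = 0.00155). Its groups did not overlap, and the lowest wt value was that of replicate 4, without which the difference was 0.84 (adjusted p = 0.00452).

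Of the 11 pyrimidine synthesis and salvage genes listed, 3 rose, beside 0.195% of all features, none fell, and the median was 0.11, beside -0.01 over all features. URA3, close to absent in wt (12 to 33 counts), is 1 of these 3. The called genes of the list with a substantial wt level were URA1 and URA4. URA1, dihydroorotate dehydrogenase, stood at 661, 830, 683 and 687 CPM in wt and at 1540, 1451, 1256 and 1488 CPM in lsm1-ideg. The groups were clearly apart, with a difference of 1.00 ± 0.15 (adjusted p = 0.000689). URA4, dihydroorotase, went from 204, 225, 190 and 225 CPM to 412, 350, 334 and 377 CPM (0.80 ± 0.14, adjusted p = 0.00456). The other enzymes did not pass the test. URA2, the first and feedback-inhibited step, had 0.11 ± 0.23, URA5 and URA10, which encode orotate phosphoribosyltransferase, 0.14 and -0.09, and PPR1, the transcription factor of the pathway, 0.05 ± 0.11. Among transporters the uridine permease gene FUI1, which the list does not hold, rose from between 109 and 119 CPM to 222, 199, 182 and 158 CPM (0.74 ± 0.14, adjusted p = 0.00735), a call lost without lsm1-ideg T0 replicate 1 (adjusted p = 0.0664). The uracil permease gene FUR4, at -0.22 ± 0.15, was not called.

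The upstream windows of URA1, URA3 and URA4 are printed because these 3 genes were the called ones of the pyrimidine list. Each window holds the sequence class bound by Ppr1, the activator that responds to pathway intermediates. The windows are the 250 bases before the feature's start in the reference genome R64 (the sacCer3 assembly), read 5' to 3' on the gene's strand, and were not read from these strains. Capitals mark matches to CGGNNNNNNCCG, a motif that is its own reverse complement. The windows are chrXI:24894-25143 (plus strand), chrV:115871-116120 (plus strand) and chrXII:963457-963706 (plus strand).
URA1: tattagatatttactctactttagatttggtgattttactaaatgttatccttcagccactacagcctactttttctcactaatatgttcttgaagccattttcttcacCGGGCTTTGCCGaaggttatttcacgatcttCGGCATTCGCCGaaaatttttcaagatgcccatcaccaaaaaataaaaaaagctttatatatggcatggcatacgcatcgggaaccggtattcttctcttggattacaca
URA3: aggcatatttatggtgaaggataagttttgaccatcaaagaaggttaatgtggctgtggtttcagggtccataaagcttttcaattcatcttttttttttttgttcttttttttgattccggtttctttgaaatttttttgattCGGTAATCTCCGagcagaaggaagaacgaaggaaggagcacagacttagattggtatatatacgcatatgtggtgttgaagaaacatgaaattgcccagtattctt
URA4: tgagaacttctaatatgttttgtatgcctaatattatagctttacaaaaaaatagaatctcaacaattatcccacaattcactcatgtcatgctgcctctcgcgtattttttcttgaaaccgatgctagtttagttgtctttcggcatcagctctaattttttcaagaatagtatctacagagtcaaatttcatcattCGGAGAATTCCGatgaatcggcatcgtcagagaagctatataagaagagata

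URA1 has 2 matches, which begin 141 and 110 bases before the feature, URA3 has 1 at 106 bases and URA4 has 1 at 52 bases. The motif was found in 90 of 5782 upstream windows of the same length (1.56%). Among the called protein-coding genes it was in the windows of 4 of the 17 that rose, the fourth being MDH2, and in 0 of the 7 that fell. URA3, which was close to absent in wt, is counted among the 4. A match describes the letters of the window and is not evidence of binding. Other motifs searched on both strands in the same windows were CCCCT, the stress response element, in 19.1% of windows and in 8 of the 24 called genes, TGACTC (Gcn4) in 6.61% and in URA4, and CACGTG (Pho4) in 4.00% and in OPT2 and PHO11.

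**Figure D4:**
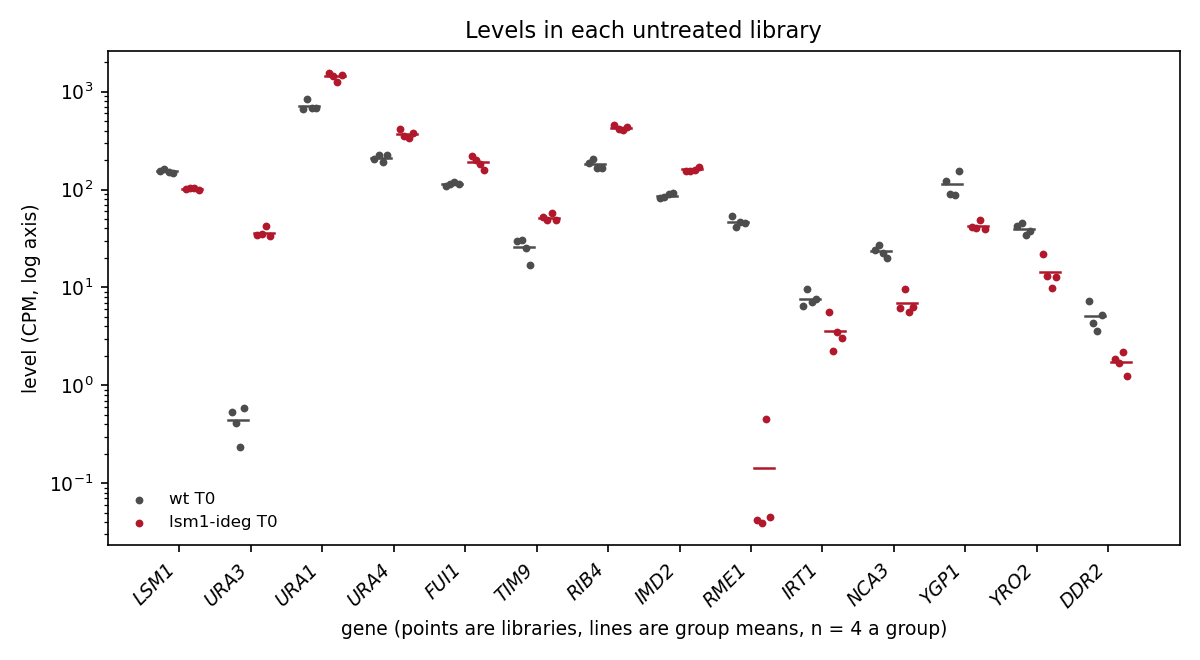
Levels in CPM (log axis) of 14 called features in each of the 8 libraries, grey for wt T0 and red for lsm1-ideg T0, with lines at the group means. No pair of groups overlaps, URA3 and RME1 are shifted by more than 1 decade, and 1 lsm1-ideg library of RME1 (0.449 CPM) lies above the other 3.

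RME1 was the largest fall. Rme1 is the zinc finger protein that represses meiotic entry in haploid cells. Its wt libraries held 53.1, 41.8, 47.0 and 45.9 CPM, or 2380 to 2555 counts each. The lsm1-ideg libraries held 2, 2, 22 and 2 counts, and the 22 counts of replicate 3 were 0.449 CPM. The transcript was therefore close to absent in all 4 lsm1-ideg libraries. The summed counts of 9865 and 28 gave a depth-corrected ratio of 318 (95% exact interval 220 to 478, which covers counting error only). Replicate 3 held most of the 28 counts, and without it the ratio was 1100 (506 to 3000, from 6 counts). The fitted log2 difference was -8.31 ± 0.46 (adjusted p = 7.02e-12). The RME1 feature spans chromosome VII, 582890-583942, minus strand. The dubious open reading frame YGR045C, which overlaps its upstream end on the same strand, fell by 2.55 (SE 0.41, adjusted p = 0.00155). RME1 was low in dcp2-ideg T0 too, at 0.478, 0.695, 0.229 and 0.669 CPM, so the level near 0 was found in both degron strains and in no wt library.

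IRT1, the long non-coding RNA transcribed through the promoter of the meiotic regulator IME1 and known to be activated by Rme1, was lower. It fell from 6.41, 9.62, 7.11 and 7.62 CPM to 5.62, 2.24, 3.47 and 3.05 CPM, and the highest lsm1-ideg value stayed below the lowest wt value. The difference was -1.10 ± 0.21 (adjusted p = 0.00765), and it was not called in the fit of the 8 libraries alone (adjusted p = 0.0802) or of the 12 T0 libraries (adjusted p = 0.113). The table also lists these reads as SUT643 and XUT_10R-233, so the 3 calls describe 1 transcript. At T60 its difference was -0.30 (adjusted p = 0.508). Its upstream window in R64, chrX:607425-607674 on the minus strand, is printed because RME1 carried the largest fall, with capitals at the letters CCTCAAAA, the element bound by Rme1.
IRT1: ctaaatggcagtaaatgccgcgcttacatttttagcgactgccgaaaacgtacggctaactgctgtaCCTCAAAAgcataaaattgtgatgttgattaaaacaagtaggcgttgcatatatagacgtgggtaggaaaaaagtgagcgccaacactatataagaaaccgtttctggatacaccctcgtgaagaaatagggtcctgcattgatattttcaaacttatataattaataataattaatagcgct

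The match begins 183 bases before the feature. CCTCAAAA or its complement was in 98 of 5782 windows (1.70%) and in none of the 24 called protein-coding genes. IME1 itself was at 13.9 ± 1.9 CPM in wt and 9.57 ± 0.92 CPM in lsm1-ideg (SD, n = 4), a difference of -0.54 ± 0.22 that did not pass (adjusted p = 0.606). Of the 31 meiosis and sporulation genes listed none was called, beside 0.348% of all features, and the median was 0.03.

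Other metabolic genes rose, most of them by less than 2-fold. RIB4, lumazine synthase of riboflavin synthesis, had 188, 206, 167 and 167 CPM in wt and 455, 418, 406 and 436 CPM in lsm1-ideg (1.24 ± 0.13, adjusted p = 5.78e-06). IMD2, the inosine monophosphate dehydrogenase gene that is induced when guanine nucleotides are short, had 81.1, 83.0, 90.1 and 91.3 CPM against 156, 156, 159 and 171 CPM (0.90 ± 0.10, adjusted p = 1.05e-05). Both pairs of groups were far apart relative to their spread. IMD2 was 1 of 16 adenine and GTP synthesis genes to be called, and the list's median was 0.03. In the dcp2-ideg T0 libraries the differences from the same wt libraries were 1.25 for RIB4 and 0.70 for IMD2.

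Among 24 genes under nitrogen catabolite repression, 2 rose, beside 0.195% of all features, and the median was 0.04. OPT2, an oligopeptide transporter, rose from 2.60, 1.28, 2.45 and 2.50 CPM to 6.76, 3.85, 8.33 and 4.94 CPM (1.44 ± 0.27, adjusted p = 0.00781), and the call was lost without wt T0 replicate 2 or lsm1-ideg T0 replicate 3 (adjusted p up to 0.0637). GLN1, glutamine synthetase, rose by 0.71 ± 0.14 (adjusted p = 0.0102), lost without lsm1-ideg T0 replicate 1, wt T0 replicate 2 or wt T0 replicate 3 (adjusted p up to 0.0768). The ammonium permease gene MEP2, at -0.34 ± 0.11, was not called.

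The sulfur list had the highest median of all, 0.30 over 27 genes, yet only 1 of them was called. That gene was SAM2, S-adenosylmethionine synthetase, which rose from 249, 211, 223 and 215 CPM to 348, 331, 340 and 320 CPM (0.58 ± 0.11, adjusted p = 0.00781), without overlap. Its call was lost without wt T0 replicate 2 (adjusted p = 0.0616). Before adjustment 12 of the 27 had a p under 0.05 and were higher, beside 3.73% of all features, among them MET6, methionine synthase, at 0.59 ± 0.17 (adjusted p = 0.215), and the sulfate permease gene SUL1 at 1.07 ± 0.33 (adjusted p = 0.284).

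The phosphate starvation list was similar, with a median of 0.28 over 19 genes and 1 call. PHO11, a secreted acid phosphatase, had 330, 309, 342 and 253 CPM in wt and 528, 419, 707 and 520 CPM in lsm1-ideg (0.82 ± 0.17, adjusted p = 0.025). It has a near-identical copy, PHO12 (0.76 ± 0.18, adjusted p = 0.0606), so the split of reads between them is uncertain. The PHO11 call was lost in 6 of the 8 fits that leave out 1 library, all but those without lsm1-ideg T0 replicate 2 or wt T0 replicate 3 (adjusted p up to 0.202). The phosphate transporter gene PHO84, at 0.39 ± 0.16, was not called. In dcp2-ideg T0 PHO11 had -0.07 against wt, and lsm1-ideg was above dcp2-ideg by 0.89 (adjusted p = 0.0143).

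Further called rises each belonged to another process. DSE1, a daughter-cell protein of the cell wall separation programme, rose by 0.66 ± 0.11 (adjusted p = 0.00155), 1 of 12 daughter-cell and M to G1 genes, whose median was 0.24. MDH2, cytosolic malate dehydrogenase, rose by 0.60 ± 0.11 (adjusted p = 0.00765), lost without wt T0 replicate 1 (adjusted p = 0.0517). GAL1, galactokinase, rose from 14.7, 11.2, 10.2 and 12.3 CPM to 22.1, 20.1, 22.3 and 20.9 CPM (0.82 ± 0.18, adjusted p = 0.0335), the only call among 9 galactose genes. It was kept in none of the leave-one-out fits but that without wt T0 replicate 1, with an adjusted p of up to 0.205.

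The 3 weakest rises were HFM1, a meiotic DNA helicase, at 0.51 ± 0.10 (adjusted p = 0.00996), FAA1, a long-chain acyl-CoA synthetase, at 0.45 ± 0.10 (adjusted p = 0.0375), and the ribosomal protein gene RPL7B at 0.42 ± 0.09 (adjusted p = 0.0203). HFM1 lost its call in 3 of the 8 leave-one-out fits (without lsm1-ideg T0 replicate 3, wt T0 replicate 2 or wt T0 replicate 4; adjusted p up to 0.119). FAA1 kept its call only without wt T0 replicate 4 and RPL7B only without lsm1-ideg T0 replicate 4 (adjusted p otherwise up to 0.184 and 0.119). RPL7B has the near-identical copy RPL7A, which stood at 0.06 ± 0.08, and was the single call among 137 ribosomal protein genes, whose median was 0.07.

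The falls outside RME1, LSM1 and NCA3 were 4 protein-coding genes. Of these, 2 belong to the general stress response list of 40 genes with a median of 0.01, beside 0.153% lower of all features. YGP1, a secreted glycoprotein induced on nutrient limitation, had 122, 90.0, 87.2 and 154 CPM in wt and 41.9, 40.5, 48.3 and 39.8 CPM in lsm1-ideg. The difference was -1.41 ± 0.15 (adjusted p = 3.27e-06), and without wt T0 replicate 4, its highest wt library, it was -1.24 (adjusted p = 6.8e-06). DDR2, a stress protein gene, was scarcer, with 7.26, 4.29, 3.56 and 5.23 CPM against 1.86, 1.69, 2.19 and 1.25 CPM (-1.54 ± 0.28, adjusted p = 0.00545). No other gene of the list was called, TPS1, trehalose-6-phosphate synthase, being at -0.26 ± 0.14 (adjusted p = 0.784). The list as a whole was not lower: 21 of the 40 had a positive difference, the highest 0.95. Before adjustment 3 of the 40 were higher with a p under 0.05 and 2 lower, beside 3.73% and 3.35% of all features.

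YRO2, a plasma membrane protein of the Hsp30 family, fell from 41.9, 45.5, 34.2 and 37.6 CPM to 21.8, 13.2, 9.82 and 12.8 CPM (-1.47 ± 0.28, adjusted p = 0.00927). The highest lsm1-ideg library, replicate 1, remained below all wt libraries, and the call was lost without replicate 3 of lsm1-ideg T0 (adjusted p = 0.0632). OCH1, the mannosyltransferase that starts outer chain N-glycan synthesis in the Golgi, fell from between 91.7 and 121 CPM to between 60.5 and 71.8 CPM (-0.61 ± 0.09, adjusted p = 0.000801). YGP1 and YRO2 were also lower in lsm1-ideg than in dcp2-ideg at T0, by -0.92 (adjusted p = 0.00127) and -1.47 (adjusted p = 0.0141).

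Of the 41 calls, 17 were not protein-coding genes: 6 were higher and 11 lower. The other 24 were protein-coding, of 5752 such genes among the 11776 features tested, and 0.348% of all features were called. Several of the 17 lay opposite a gene, and how often all such features do so was not counted. SUT013, a stable unannotated transcript opposite GAL10 next to GAL1, rose from 10.3, 9.72, 9.23 and 10.9 CPM to 30.4, 24.8, 29.2 and 32.9 CPM (1.54 ± 0.18, adjusted p = 1.96e-05), while GAL10 itself had 0.52 ± 0.30 (adjusted p = 0.806). YDR008C, a dubious reading frame opposite TRP1, rose from between 0.868 and 1.00 CPM to 3.53, 2.38, 3.68 and 3.21 CPM (1.77 ± 0.24, adjusted p = 0.000121), with TRP1 at 0.29 ± 0.20 (adjusted p = 0.882). Both kept their calls without any 1 library.

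Some of the non-coding falls lay at or beside HPF1 on chromosome XV. SUT350 (31666-33258), opposite HPF1, fell from 45.02, 38.2, 45.9 and 50.2 CPM to 19.3, 14.8, 20.9 and 22.99 CPM (-1.20 ± 0.18, adjusted p = 0.000689). XUT_15F-18 (33345-34330), downstream of it, fell from 6.37, 4.84, 5.06 and 5.86 CPM to 1.23, 1.53, 1.94 and 1.27 CPM (-1.89 ± 0.23, adjusted p = 2.1e-05), and the overlapping SUT351 by 1.33 (SE 0.29, adjusted p = 0.0366). Neither XUT_15F-18 nor SUT351 overlaps a feature on the other strand, and SUT351 overlaps ZPS1 on its own strand. The SUT351 call was held in the leave-one-out fit without wt T0 replicate 3 alone (adjusted p up to 0.171 in the others). HPF1, a cell wall mannoprotein gene, was at 58.6 ± 15.8 CPM in wt and 180 ± 71 CPM in lsm1-ideg, and this difference of 1.62 ± 0.42 did not pass (adjusted p = 0.123).

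The same arrangement, a called fall opposite an uncalled gene with a positive difference, was seen at CSS1 and ROF1. XUT_9F-4, which overlaps CSS1 on the other strand, fell from 169, 137, 142 and 209 CPM to 60.3, 57.1, 66.0 and 87.0 CPM (-1.28 ± 0.22, adjusted p = 0.00276), and CSS1 had 1.92 ± 0.47 (adjusted p = 0.093). SUT592 and the overlapping XUT_8R-217 fell by 1.43 and 1.41 (adjusted p = 0.00456 and 0.00548) opposite ROF1, a putative transcription factor gene, which had 0.89 ± 0.23 (adjusted p = 0.123). Whether the strands of these pairs changed together was not tested. The search for near-identical copies covered coding sequences only, so whether these non-coding features share reads with each other was not tested either.

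The other 4 non-coding rises were XUTs of low level. XUT_6R-1, near the left end of chromosome VI (856-1195), rose by 1.58 ± 0.27 (adjusted p = 0.00319). XUT_15R-7, near the left end of chromosome XV (4135-5377), rose by 0.98 ± 0.22 (adjusted p = 0.0448) and lost its call in all 8 leave-one-out fits (adjusted p up to 0.189). XUT_8F-246 rose by 1.09 ± 0.23 (adjusted p = 0.0271) and lost its call in 6 of them, all but those without wt T0 replicate 1 or 3 (adjusted p up to 0.151). XUT_7F-393, at no more than 0.131 CPM in wt and 0.410 to 0.817 CPM in lsm1-ideg, had 2.71 ± 0.56 (adjusted p = 0.0189), lost without lsm1-ideg T0 replicate 3 or wt T0 replicate 4 (adjusted p up to 0.093).

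The same strains at T60 gave 8 libraries that were in neither group of the T0 comparison. They entered the same model, and so shared its filter and its estimates of spread, and the labels do not say whether the T60 samples came from the T0 cultures. There 462 features were called (3.92%), 307 higher (2.61%) and 155 lower (1.32%). Of the 41 T0 calls, 38 had the same sign at T60 and 26 were called in the same direction, 13 higher and 13 lower, with 0 called in the opposite one. LSM1 had -0.88 (adjusted p = 8.52e-08), URA3 5.40 (adjusted p = 3e-12), RME1 -8.08 (adjusted p = 3.08e-12), NCA3 -1.38 (adjusted p = 0.000217) and YGP1 -1.43 (adjusted p = 6.41e-07).

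**Figure D5:**
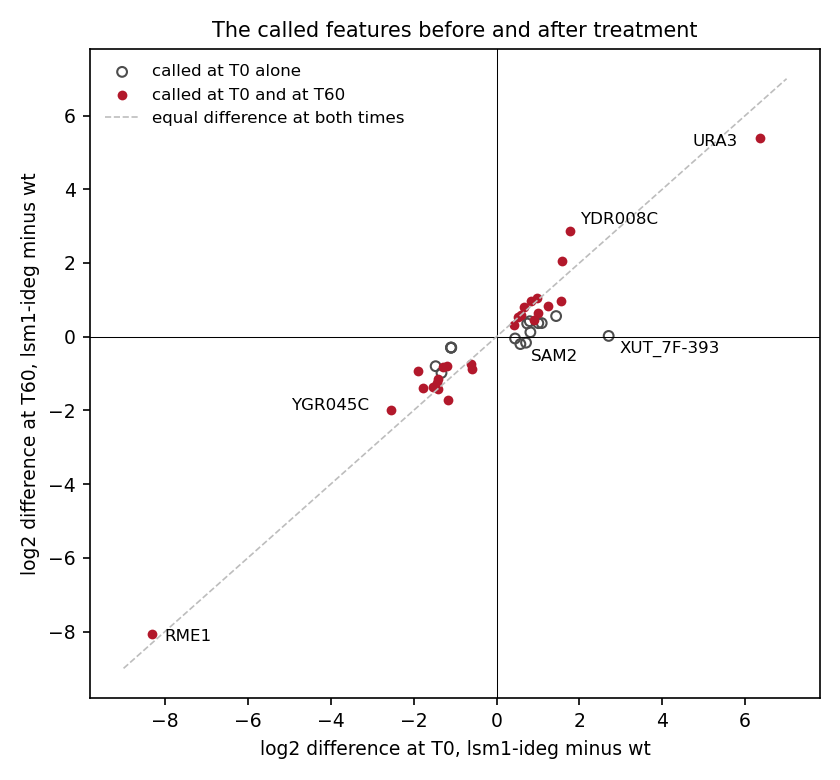
Log2 difference of lsm1-ideg and wt at T60 against that at T0 for the 41 features called at T0, filled where also called at T60. The filled points number 26 and lie in the same quadrants at both times, and 3 features, SAM2, GLN1 and FAA1, have a T60 difference of opposite sign (-0.20, -0.16 and -0.05).

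The difference between the T0 and T60 contrasts was called for 25 features (0.212%) over the table and for 1 of the 41, SAM2. Its difference went from 0.58 at T0 to -0.20 at T60, a change of -0.78 (adjusted p = 0.0246). For the 15 T0 features not called at T60, a p that misses the threshold at one time does not show that the times differed. Their T60 values included 0.37 for TIM9 (adjusted p = 0.247), 0.42 for URA4 (adjusted p = 0.103), 0.56 for OPT2 (adjusted p = 0.29), 0.12 for PHO11 (adjusted p = 0.785) and -0.80 for YRO2 (adjusted p = 0.114).

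Against the other degron strain before treatment, 27 features (0.229%) separated lsm1-ideg from dcp2-ideg. This comparison shares the lsm1-ideg libraries with that against wt. Among the features described, LSM1, CUT207 (-1.39, adjusted p = 0.0106), YGP1, YRO2 and PHO11 were called in it with the sign they had against wt. For the rest, a p that misses the threshold does not show that the degron strains were alike: RME1 had -1.80 ± 0.53 (adjusted p = 0.359) and NCA3 -0.63 (adjusted p = 0.503). URA1, URA4 and RIB4 had differences between the degron strains of -0.12, -0.05 and -0.02, and their differences from wt in dcp2-ideg, where 97 features (0.824%) were called, were 1.12, 0.85 and 1.25. The T0 calls not called in dcp2-ideg against wt were LSM1, CUT207, YGP1, YRO2, DDR2, PHO11, SAM2, GAL1, HFM1, RPL7B, SUT351, XUT_15R-7 and XUT_7F-393. The rest of the 41 were called there in the same direction, with -2.09 for SUT592, 1.82 for YDR008C and 1.14 for TIM9. Both comparisons used the same wt libraries, so they are not independent. In dcp2-ideg T0, replicate 4 had 24.7% of its counts on ribosomal protein genes, where the other replicates had 15.28% to 16%. That library was the highest of its group for URA1 (2180 CPM, otherwise 1286 to 1413) and URA4 (521, otherwise 327 to 352). The same held for RIB4 (555, otherwise 366 to 410) and TIM9 (76.8, otherwise 48.3 to 51.5), while URA3 was lowest there (12.4, otherwise 29.0 to 31.4). A fit without it was not run.

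Of the 43 gene lists, 32 had no called member, and the medians of all 43 lay between -0.15 and 0.30. Over all features 0.348% were called, so a list of this size without a call says little about its genes. The lists without a call included heat shock factor targets (26 genes, median -0.12), the nuclear-encoded respiratory chain (39 genes, -0.11), the unfolded protein response (15 genes, -0.07), the proteasome (32 genes, -0.03), ribosome biogenesis (77 genes, 0.01), glycolysis and fermentation (18 genes, 0.01), histones (8 genes, -0.0047) and amino acid biosynthesis (49 genes, 0.12). The iron starvation genes had the lowest median, -0.15 over 30 genes. Before adjustment 10 of the 30 had a p under 0.05 and were lower, beside 3.35% of all features, and 2 were higher, beside 3.73%. FET3, the multicopper ferroxidase of iron uptake, was at 925 CPM in wt and 691 CPM in lsm1-ideg (-0.42 ± 0.19, adjusted p = 0.671), and FIT2, a cell wall mannoprotein that aids siderophore uptake, had -0.62 ± 0.25 (adjusted p = 0.579). Of the 8 marker and auxotrophy loci tested, URA3 was called, while HIS3 (0.33 ± 0.13, adjusted p = 0.585), LYS2, TRP1, ADE2, CAN1, LYP1 and HO were not, with log2 differences from -0.15 to 0.33.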

How the data were processed

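The authors deposited 1 table of raw read counts per feature for 24 libraries, not normalized. The submitters' processing notes name STAR, featureCounts and the build sacCer3. Tool versions, the gene annotation and the strand option are not given in the sources used here, and reads appeared to be counted in every feature they overlap, as at IRT1. Columns were matched to samples by the library names in the labels. All 24 columns were used in 1 edgeR quasi-likelihood model (edgeR 4.0.16, limma 3.58.1, R 4.3.3) with a mean per group and TMM scaling, after filterByExpr kept 11776 features and left out 513, LEU2 and MET17 among them. The model had 18 residual and 6.72 prior degrees of freedom. Tests were two-sided, Benjamini-Hochberg adjustment ran over the 11776 features, and a call is an adjusted p under 0.05. Differences are log2 values, the SE is the log2 difference divided by the square root of F, and CPM are scaled with the TMM factors and not corrected for length. The script was tested on simulated counts.

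Names followed a fixed rule: LSM1, the 12 largest called rises and falls of protein-coding genes, the 4 largest of other features, called list members and neighbours, and the marker, Lsm ring and decapping genes. The rule gave 51 features, and the 11 called ones outside it were named after their values were seen, as were uncalled genes given as examples. The comparison, the lists and the motifs were chosen with earlier results of these data known. Near-identical copies (95% identity or more across 50% or more of the coding sequence, by blastn 2.17.0) were found for 215 genes. In the R64 annotation 5385 of 5777 coding sequences (93.2%) were contained in the equally named feature.

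Within lsm1-ideg T0 and within wt T0 no library was a repeat of another, since all pairs of replicates there differed by far more than sampling noise. The other groups, and pairs across groups, were not checked in this way. Alternatives were RLE and total count scaling, DESeq2 1.42.0, 2 other filters, fits of 8 or 12 libraries or of protein-coding genes alone, a replicate block, and each library left out. A file of checksums was not used.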

Additional observations from a re-analysis of the deposited data

Results flagged for a closer look

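Among 124 groups of 4 libraries checked for a library far from the other 3, 9 had one, where chance gives about 1 in 20. In wt T0, replicate 4 was apart for DHH1 (131 CPM), EDC3 (122 CPM) and the endonuclease gene HO (101 CPM), and replicate 2 for OPT2 (1.28 CPM) and URA1 (830 CPM). In lsm1-ideg T0, replicate 3 was apart for RME1 (0.449 CPM), URA3 (42.85 CPM) and XUT_15R-7 (5.72 CPM), and replicate 1 for SCD6 (116 CPM). For RME1, URA1 and URA3 the groups stayed far apart with these libraries included. SAM2 was the single called feature for which the change of the strain difference from T0 to T60 passed the test (-0.78). The change of GLN1, -0.87, did not pass (adjusted p = 0.0641).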

How the results depend on the processing

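LSM1 stayed lower and called under each alternative run, and no called feature changed sign under any of them. With 23 higher and 18 lower features as reported, DESeq2 called 48 higher and 32 lower and shared 51 calls with T60 in place of 26. All 41 calls were among them, as they were under RLE scaling, total count scaling, no filter and the replicate block. The 8 libraries compared gave 32 higher and 18 lower, with 33 of the 41 called. The 12 T0 libraries alone gave 17 higher and 11 lower, and 24 of the 41 were called. Protein-coding genes alone gave 22 higher and 8 lower, where 17 of the 41 had no test because they are not protein-coding. Leaving out 1 library gave 13 to 21 higher, 16 to 18 lower, an LSM1 difference of -0.63 to -0.57 and 21 to 25 calls shared with T60. Without wt T60 replicate 3, an alternative chosen after seeing the data, 29 were higher and 21 lower, and 31 calls were shared with T60. Same-numbered lsm1-ideg and wt libraries had correlations of deviations of 0.08, 0.29, -0.02 and 0.30, and those of unlike number ranged from -0.24 to 0.23. Not every library correlated best with its own number, so these values do not settle whether the numbers pair the samples. The main fit used no pairing. A replicate block gave 34 higher, 24 lower and 40 calls shared with T60. Apart from the construction of the fits named, the cause of these moves was not tested. With 4 libraries a group and a median SE of 0.14, many differences of 1.5-fold or somewhat more in protein-coding genes, and larger ones in features under 1 CPM, could go undetected.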
